A study of Mus musculus with 12 samples.

Results

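The tumour suppressor gene Trp53, its relatives Trp63 and Trp73, and 7 genes whose products bind, modify or restrain p53 (Mdm2, Mdm4, Rchy1, Ppm1d, Ccng1, Hipk2 and Wrap53) were followed across an RNA-seq experiment on DNA damage in mouse embryonic fibroblasts (MEFs). The 10 genes were taken by name, for their known place in the p53 circuit, from a table of 24421 genes. All 10 were found in the table and all 10 were among the 15220 genes kept by the filter on low counts, Trp73 through its etoposide libraries alone.

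p53 is a transcription factor that is held at a low level in unstressed cells, chiefly because Mdm2 attaches ubiquitin to it and so marks it for degradation, and because Mdm4 covers its activating domain. DNA damage sets off kinases that phosphorylate p53 and loosen that hold, and the stabilised protein switches on genes for arrest, repair and cell death. Among its targets are genes that act back on p53 itself, such as Mdm2, Ppm1d and Ccng1, which makes the circuit a feedback loop. Etoposide traps topoisomerase II on cut DNA and so leaves double-strand breaks. TFEB and TFE3 are transcription factors of lysosomal and autophagy genes that bind the CLEAR element, whose core is CACGTG.

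There were 4 groups of 3 libraries of total RNA: Null MEFs and CRISPR TFEB/TFE3 double-knockout (DKO) MEFs, each as control and after 100 µM etoposide for 8 h. The Null line was taken as the wild type of the study, which the labels do not state; they call the controls untreated, whereas the study's methods name DMSO as their treatment. Each genotype was 1 line, so the effect of the genotype cannot be told apart from other differences between the lines. The study states that its MEFs were immortalised with SV40, which can affect p53 stability; protein was not measured in these libraries. The labels do not say whether the replicates were separate cultures, and p-values then measure the spread between these libraries alone, which may be technical.

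Counts on genes per library ran from 45577023 to 104120871, with group medians of 67654759 (Null control), 74826945 (DKO control), 75454495 (Null etoposide) and 68441372 (DKO etoposide). Each of the 12 libraries correlated best with another of its own group. Levels are given below as CPM on libraries scaled by the trimmed mean of M-values (TMM). Folds and tests come from the quasi-likelihood fit of edgeR. Its p-values were adjusted by Benjamini and Hochberg's method over all 15220 genes, with a threshold of 0.05. The standard error (SE) of a log2 fold change was derived as its absolute value over the square root of the test's F statistic.

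The targeted genes were looked at first. Tfeb stood at 38.9, 39.2 and 42.1 CPM in Null controls and at 4.60, 6.09 and 4.68 CPM in DKO controls, with no overlap. After etoposide it was 11.4, 10.2 and 10.4 CPM in Null and 1.92, 1.61 and 2.20 CPM in DKO MEFs, again apart. Tfe3 was 115, 109.9 and 114 CPM in Null controls against 94.1, 93.1 and 91.0 CPM in DKO controls. After etoposide the Tfe3 groups overlapped, at 68.5, 69.6 and 68.1 against 70.7, 71.2 and 63.4 CPM. Counts over a whole gene do not show a small edit, so the genotype label was checked by Tfeb and not by Tfe3.

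Of 14 fibroblast markers, 12 were over 1 CPM in each of the 4 groups. Their summed level was 7413, 7391 and 7551 CPM in Null controls, 12250, 12900 and 12310 CPM in DKO controls, 4053, 3930 and 3927 CPM in etoposide-treated Null MEFs and 5399, 5465 and 5127 CPM in etoposide-treated DKO MEFs. Vim was the most abundant of them in 3 groups and Fn1 in etoposide-treated DKO MEFs, and Thy1 was at 0.0365 CPM in DKO controls. Markers of other cell types also moved with the groups. Summed muscle markers, nearly all from Acta2 and Tagln, were 873, 864 and 824 CPM in Null controls, 2270, 2269 and 2202 CPM in DKO controls, 530.2, 562 and 568 CPM in etoposide-treated Null MEFs and 1320, 1286 and 1336 CPM in etoposide-treated DKO MEFs. Des among them went the other way, from 2.11 CPM in Null controls to 0.386 in DKO controls and 36.3 in etoposide-treated Null MEFs (means of 3). Summed neural markers, mostly Nes, were 390.0, 379 and 382 CPM in Null controls, 238, 237 and 239.9 CPM in DKO controls, 422, 416 and 400.4 CPM in etoposide-treated Null MEFs and 219, 217 and 233 CPM in etoposide-treated DKO MEFs. Map2 among them went the other way between controls, from 44.0 CPM in Null to 92.5 CPM in DKO MEFs (means of 3). Summed blood markers, mostly Cd68, were 1.83, 1.57 and 1.85 CPM in Null controls, 2.75, 1.96 and 1.71 CPM in DKO controls, 13.2, 13.0 and 14.0 CPM in etoposide-treated Null MEFs and 4.05, 3.89 and 4.88 CPM in etoposide-treated DKO MEFs. In bulk RNA, fewer cells of a type and less RNA per cell cannot be told apart, and the part of these shifts in the results on the p53 genes was not tested.

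The question of the first comparison was how the p53 genes answer to DNA damage in cells with TFEB and TFE3. Trp73 was kept by the filter through its etoposide libraries alone and is left out of the counts that follow. In Null MEFs 8 of the other 9 genes passed the test after etoposide, against 78.4% of all genes tested. Trp53, Mdm2, Rchy1, Ppm1d, Ccng1 and Wrap53 rose (41.7% of all genes did), Trp63 and Hipk2 fell (36.8%), and Mdm4 did not pass. The rises ran from 1.18-fold for Trp53 to 18.1-fold for Ccng1. So large a share of all genes passed that the count of members says little by itself, and the sizes of the changes are what the following values show.

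In DKO MEFs 9 of the same 9 genes passed after etoposide, against 75.3% of all genes. Trp53, Mdm2, Ppm1d, Ccng1 and Wrap53 rose (44.0% of all genes), and Trp63, Mdm4, Rchy1 and Hipk2 fell (31.3%), the falls of Mdm4 and Rchy1 turning to log2 values of 0.05 and 0.16 when libraries were scaled by size alone. The 2 sets of etoposide changes share no library.

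Before treatment, 7 of the 9 genes differed between the genotypes, against 67.4% of all genes. Trp63, Mdm4, Rchy1 and Ccng1 were higher in DKO MEFs (33.4% of all genes) and Trp53, Mdm2 and Wrap53 lower (34.1%), whereas Ppm1d and Hipk2 did not pass. After etoposide, 8 of the 9 differed, against 72.0%: Trp63 and Hipk2 were higher in DKO MEFs (36.9%), 6 were lower (35.2%), and Mdm4 did not pass. With DESeq2 32.9% of all genes were higher and 38.2% lower in this comparison. The change with etoposide itself differed between the genotypes for 8 of the 9, against 54.6% of all genes, by the interaction of genotype and etoposide. It was more positive in DKO MEFs for Hipk2 (29.9% of all genes) and more negative for Trp63, Mdm2, Mdm4, Rchy1, Ppm1d, Ccng1 and Wrap53 (24.7%); Trp53 did not pass.

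**Figure D1:**
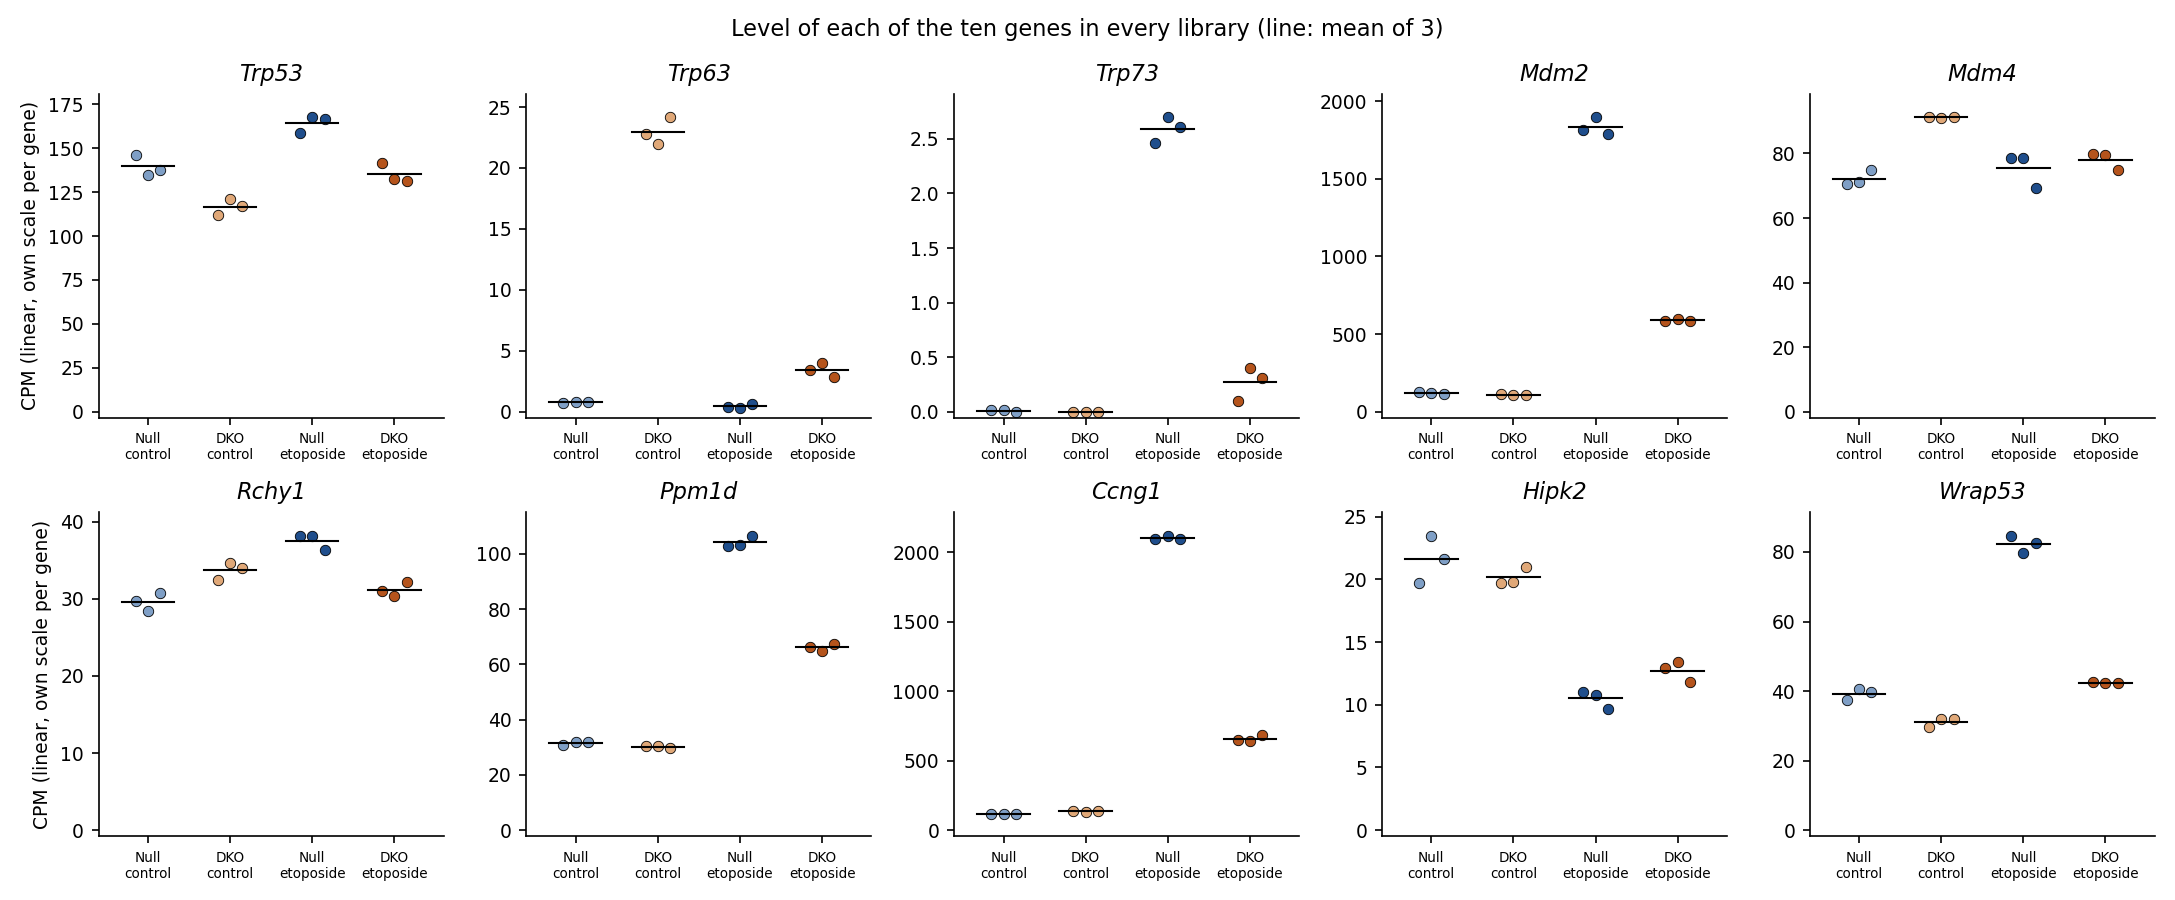
Level of each of the 10 genes in CPM, 1 panel a gene on its own linear axis, with 1 point for each of 12 libraries in 4 groups and a line at the mean of 3. Mdm2 and Ccng1 sit between 106.3 and 140.4 CPM in both control groups. Both genes lie far above that in both etoposide groups, higher in Null than in DKO MEFs. Trp63 is high in DKO controls.

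Trp53 (chr11:69580359-69591873, plus strand, GRCm38) encodes p53. Its level was 146, 135 and 138 CPM in Null controls, 112, 121 and 117 CPM in DKO controls, 159, 168 and 167 CPM in etoposide-treated Null MEFs and 142, 133 and 131 CPM in etoposide-treated DKO MEFs. Both etoposide groups lay wholly above their own controls, and each DKO group lay wholly below the Null group of the same treatment, while the Null control and DKO etoposide libraries overlapped. The rise was 1.18-fold in Null (log2 0.24, SE 0.04, adjusted p = 0.000108 from edgeR) and 1.16-fold in DKO MEFs (log2 0.21, SE 0.04, adjusted p = 0.000328 from edgeR). Under the alternatives in processing these log2 values ran from 0.202 to 0.404 in Null and from 0.156 to 0.488 in DKO MEFs. All of them passed. The 2 rises were not found to differ, with an interaction of -0.02 on the log2 scale (SE 0.06, adjusted p = 0.798 from edgeR). DKO MEFs had less Trp53 RNA by -0.26 on the log2 scale before and by -0.28 after etoposide (SE 0.04 each, adjusted p = 5.06e-05 and 1.84e-05 from edgeR). Group means ran from 116.6 ± 4.58 to 164.5 ± 4.80 CPM (SD, n = 3 each).

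Trp63 (chr16:25683763-25892102, plus strand) encodes p63, the relative known for its part in stratified epithelia. It stood at 0.688, 0.768 and 0.819 CPM in Null controls and at 22.8, 21.9 and 24.2 CPM in DKO controls, wholly apart. After etoposide it was 0.415, 0.339 and 0.671 CPM in Null MEFs and 3.42, 3.99 and 2.87 CPM in DKO MEFs, each group below its own control. Untreated DKO MEFs had 30.4 times the Null level (log2 4.92, SE 0.16, adjusted p = 8.49e-14 from edgeR), the widest genotype difference among the 10 in controls. Etoposide lowered Trp63 in DKO MEFs by -2.75 on the log2 scale (SE 0.14, adjusted p = 1.26e-11 from edgeR), and DKO MEFs remained 7.29-fold above Null MEFs after it.

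In Null MEFs the Trp63 change rested on 159 counts in the control group and 108 in the etoposide group. It was -0.69 on the log2 scale (SE 0.23, adjusted p = 0.0112 from edgeR), and without the second etoposide library of Null MEFs it was -0.50 and no longer passed. Fitted on the 6 Null libraries alone it was -0.68 and did not pass either. The fall was deeper in DKO MEFs, by -2.06 on the log2 scale (SE 0.27, adjusted p = 6.95e-06 from edgeR's interaction test).

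Of 7 epithelial markers, 1 was over 1 CPM in each group, Krt8 in the controls and Cdh1 after etoposide. Their summed level was 2.68, 2.32 and 2.95 CPM in Null controls, 5.25, 5.19 and 5.96 CPM in DKO controls, 3.53, 4.24 and 4.22 CPM in etoposide-treated Null MEFs and 2.83, 2.32 and 2.28 CPM in etoposide-treated DKO MEFs. In the DKO controls, where Trp63 was highest, Krt5 had 0 counts, Krt14 had 2 counts over the group and Epcam had 9, against 1, 0 and 77 in Null controls. Krt18 was lower there too, at 0.0327 ± 0.0176 against 0.296 ± 0.132 CPM (SD, n = 3 each). Cdh1 was at 0.767, 0.924 and 0.419 CPM there against 0.590, 0.338 and 0.402 CPM in Null controls, which overlap. Krt8, at 4.58 ± 0.763 CPM there (SD, n = 3), made up most of the sum. Of the endothelial markers Erg was also highest in DKO controls, at 15.8 ± 1.5 CPM against 1.22 ± 0.201 CPM in Null controls, while Pecam1, Cdh5, Kdr, Tek and Tie1 were at or near 0 in both. The part of cell identity in the Trp63 result was not tested.

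Trp73 (chr4:154056253-154140208, minus strand) encodes p73, the third member of the family. Its raw counts were 1, 1 and 0 in Null controls, 0 in each DKO control, 202, 223 and 179 in etoposide-treated Null MEFs and 5, 29 and 31 in etoposide-treated DKO MEFs. The etoposide groups did not overlap with their controls or with each other. On libraries of this depth 3 counts over a DKO control group amount to 0.0138 CPM, and Trp73 was below that in untreated DKO MEFs. In Null MEFs the group total went from 2 to 604 counts, a ratio of 274 after scaling (95% exact binomial counting interval 75.4 to 2260). Those 2 counts lie below the floor of 3 counts over a group, and against that floor the ratio was 182. In DKO MEFs the group total went from 0 to 65 counts, for which the lower end of the 95% exact binomial counting interval is 16.7-fold.

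After etoposide Null MEFs held 8.90 times the Trp73 RNA of DKO MEFs after scaling (95% counting interval 6.89 to 11.7). These intervals and floors cover counting error alone, and not the spread between libraries. No p-value is given for Trp73, since it was kept by the filter only through libraries where it was high. Whether its rise differed between the genotypes could not be measured with controls at or near 0. Some markers of other tissues also went from near 0 to low levels in these libraries: Krt5 from 1 to 185 counts over the group in Null MEFs (0 to 16 in DKO MEFs), and Krt14 from 0 to 110 (2 to 24). The share of counts on no feature was 25.1% to 27.3% in etoposide-treated Null libraries and 22.5% to 24.2% in Null controls. The part of either in the Trp73 rise was not tested. An exon of Trp73 is overlapped for 280 bases by Trp73os, a gene on the other strand. Trp73os has no line of its own among the counts used here and the strand setting of the counting was not given, so reads of the 2 cannot be told apart.

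Promoter sequences of RefSeq (GRCm38.p6) cover 250 bases before to 50 after each start and held 14 entries for 9 of the 10 genes; Trp63 has none. They were searched on both strands for the p53 full-site consensus, allowing 2 mismatches over its 20 bases, a limit set after the promoters had been read. Of all 32851 promoters of that length, 0.798% held such a match, and among the 10 genes Trp73 and Ccng1 did. Sequence outside these windows was not searched, so the lack of a match says nothing of sites elsewhere in a gene. The 2 stretches are printed because they hold these matches; capitals mark the 20 bases of the match. That of Trp73 lies at chr4:154097180-154097279 (minus strand) before an internal start of the gene, 66 bases ahead of it, with 2 mismatches. The printed stretch of Trp73 overlaps an exon of Trp73os. That of Ccng1 lies at chr11:40755422-40755521 (minus strand), 195 bases ahead of the start, with 1 mismatch. A match is a description, not a site or a cause.
Trp73: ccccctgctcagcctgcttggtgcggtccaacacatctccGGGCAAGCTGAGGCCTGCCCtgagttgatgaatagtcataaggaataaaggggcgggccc
Ccng1: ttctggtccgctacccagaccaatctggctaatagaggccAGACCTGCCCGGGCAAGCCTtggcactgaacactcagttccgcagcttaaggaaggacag

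Mdm2 (chr10:117688875-117710758, minus strand) encodes the ubiquitin ligase that p53 both induces and is degraded by. Its level was 126, 122 and 115 CPM in Null controls, 111, 109 and 106 CPM in DKO controls, 1814, 1897 and 1791 CPM in etoposide-treated Null MEFs and 586, 595 and 585 CPM in etoposide-treated DKO MEFs. No 2 of the 4 groups overlapped. In CPM the mean gained 1710 in Null and 480 in DKO MEFs, that is 15.2-fold and 5.42-fold. Untreated DKO MEFs were lower by -0.15 on the log2 scale (SE 0.04, adjusted p = 0.000969 from edgeR), and after etoposide the gap was 3.11-fold. The smaller rise in DKO MEFs passed the interaction test of edgeR (log2 -1.48, SE 0.05, adjusted p = 5.86e-13).

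Because the Mdm2 protein acts on p53, the counts of both genes were set side by side within each library, which leaves library scaling out. The ratio of Mdm2 to Trp53 counts was 0.863, 0.903 and 0.833 in Null controls and 0.994, 0.898 and 0.908 in DKO controls, 2 groups that overlap. It was 11.4, 11.3 and 10.7 in etoposide-treated Null MEFs and 4.13, 4.48 and 4.46 in etoposide-treated DKO MEFs, both far above their controls and apart from each other. The mean log2 ratio rose by 3.69 in Null and by 2.22 in DKO MEFs, and was lower in DKO than in Null MEFs after etoposide by -1.36. In each of these 3 comparisons the exact two-sided permutation test over 3 against 3 libraries gave p = 0.1. That is the smallest p this test can give with so many libraries, so the test cannot reach 0.05 here. Between the controls the log2 difference was 0.11 (exact permutation p = 0.2). These are ratios of RNA counts of genes of unlike length and say nothing of the proteins.

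**Figure D2:**
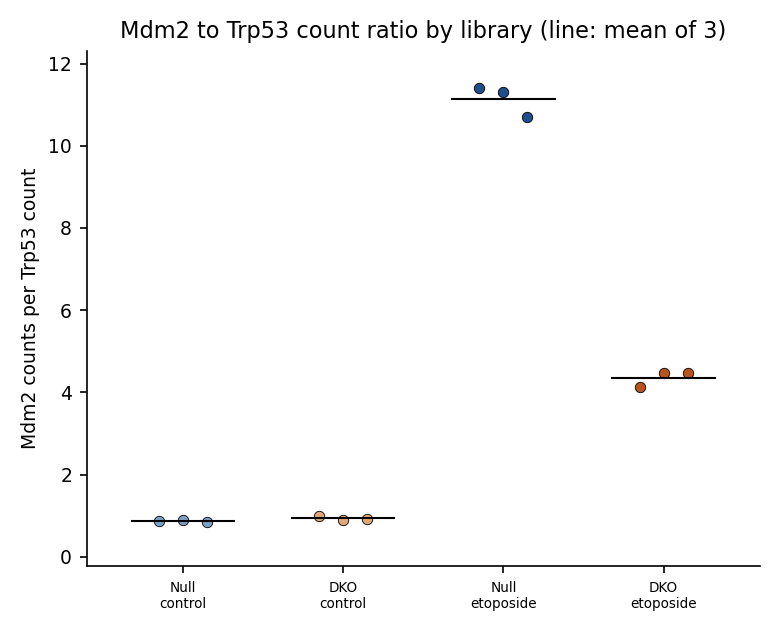
Mdm2 counts divided by Trp53 counts in each of 12 libraries (points), on a linear axis, with a line at the mean of the 3 libraries in each of 4 groups. Controls of both genotypes lie between 0.833 and 0.994, etoposide-treated DKO libraries between 4.13 and 4.48 and etoposide-treated Null libraries between 10.7 and 11.4.

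Mdm4 (chr1:132959484-133030561, minus strand) encodes the partner of Mdm2 that binds p53 without degrading it by itself. It was at 70.5, 71.1 and 74.9 CPM in Null controls, 91.2, 91.0 and 91.3 CPM in DKO controls, 78.5, 78.7 and 69.3 CPM in etoposide-treated Null MEFs and 79.7, 79.6 and 74.9 CPM in etoposide-treated DKO MEFs. The DKO controls lay above all other libraries, and the remaining 3 groups overlapped. Mdm4 was 1.26-fold higher in untreated DKO than Null MEFs (log2 0.34, SE 0.05, adjusted p = 5.87e-06 from edgeR) and came down with etoposide in DKO MEFs by -0.22 on the log2 scale (SE 0.05, adjusted p = 0.000360 from edgeR). With libraries scaled by size alone that last value was 0.05 and did not pass. In Null MEFs the change of 0.07 did not pass (adjusted p = 0.203 from edgeR), but it did at 0.11 with DESeq2, 0.11 with DESeq2's scaling inside edgeR, 0.15 with a filter at a mean of 1 CPM, 0.23 with library size alone and 0.12 without the third etoposide library of Null MEFs. The interaction of -0.29 passed (SE 0.07, adjusted p = 0.00121 from edgeR). After etoposide the genotypes were not told apart, with a log2 difference of 0.05 (SE 0.05, adjusted p = 0.377 from edgeR).

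Rchy1 (chr5:91948904-91963068, minus strand), also called Pirh2, encodes a further p53-induced ubiquitin ligase of p53. Its level was 29.7, 28.4 and 30.8 CPM in Null controls, 32.4, 34.7 and 34.0 CPM in DKO controls, 38.2, 38.2 and 36.3 CPM in etoposide-treated Null MEFs and 31.0, 30.4 and 32.1 CPM in etoposide-treated DKO MEFs. In Null MEFs etoposide libraries lay above controls, in DKO MEFs below them, and the DKO etoposide libraries overlapped with the Null controls. It rose 1.27-fold in Null MEFs (log2 0.34, SE 0.05, adjusted p = 3e-06 from edgeR). In DKO MEFs the change of -0.11 passed narrowly (adjusted p = 0.035 from edgeR); it missed at -0.11 without the third DKO control, at -0.11 without the second etoposide library of DKO MEFs and at -0.08 with the filter at a mean of 1 CPM, and was 0.16 with library size alone. The interaction was -0.45 (SE 0.06, adjusted p = 1.41e-05 from edgeR). The order of the genotypes turned over, from 1.14-fold higher in DKO MEFs before to 1.20-fold lower after etoposide, both past the threshold, the first of them not with library size alone (log2 0.07).

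Rchy1 shares 349 bases of exon with Thap6, annotated on the other strand as a transcribed pseudogene, and without a stated strand setting the reads of both cannot be told apart. Thap6 counts were 382, 316 and 312 in Null controls, 272, 394 and 270 in DKO controls, 1217, 1218 and 1147 in etoposide-treated Null MEFs and 556, 847 and 1080 in etoposide-treated DKO MEFs. Thap6 thus rose in both genotypes (log2 1.69 and 1.38), unlike Rchy1. Its part in the Rchy1 values was not tested.

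Ppm1d (chr11:85311244-85347066, plus strand) encodes Wip1, the phosphatase that takes damage-induced phosphates off p53 and its kinases. Its level was 30.9, 31.8 and 32.0 CPM in Null controls, 30.3, 30.4 and 29.8 CPM in DKO controls, 102.8, 103.3 and 106.6 CPM in etoposide-treated Null MEFs and 66.2, 64.9 and 67.4 CPM in etoposide-treated DKO MEFs. The 4 groups did not overlap, although the 2 control groups came within 1 CPM of each other and their difference did not pass (log2 -0.06, SE 0.03, adjusted p = 0.115 from edgeR; it passed at -0.18 with library size alone and at -0.08 with the filter at a mean of 1 CPM). The rise was 3.31-fold in Null and 2.19-fold in DKO MEFs, with an interaction of -0.59 (SE 0.05, adjusted p = 1.65e-08 from edgeR).

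Ccng1 (chr11:40748552-40755311, minus strand) encodes cyclin G1, a p53 target that recruits a phosphatase to Mdm2. It was at 118, 115.5 and 114.9 CPM in Null controls, 138.9, 130.9 and 140.4 CPM in DKO controls, 2093, 2121 and 2094 CPM in etoposide-treated Null MEFs and 648, 639 and 686 CPM in etoposide-treated DKO MEFs. No groups overlapped, and the control order was the reverse of the order after etoposide. Untreated DKO MEFs had 1.18 times the Null level (log2 0.23, SE 0.03, adjusted p = 8.92e-06 from edgeR). With etoposide Ccng1 rose 18.1-fold in Null MEFs (log2 4.18, SE 0.04, adjusted p = 3.13e-20 from edgeR) and 4.81-fold in DKO MEFs (log2 2.27, SE 0.03). The interaction of -1.91 (SE 0.05, adjusted p = 2.86e-14 from edgeR) was the most negative of those that passed among the 10 after that of Trp63.

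Hipk2 (chr6:38694390-38876165, minus strand) encodes a kinase that phosphorylates p53 in favour of cell death and is itself a target of Mdm2. It was at 19.7, 23.5 and 21.7 CPM in Null controls, 19.7, 19.8 and 21 CPM in DKO controls, 11.1, 10.8 and 9.65 CPM in etoposide-treated Null MEFs and 12.9, 13.4 and 11.8 CPM in etoposide-treated DKO MEFs. The 2 control groups overlapped, both etoposide groups lay below them, and the DKO etoposide group lay above the Null one. It fell 2.06-fold in Null MEFs (log2 -1.04, SE 0.08, adjusted p = 1.44e-09 from edgeR) and 1.59-fold in DKO MEFs (log2 -0.67, SE 0.08, adjusted p = 5.77e-07 from edgeR). The interaction was 0.37 (SE 0.11, adjusted p = 0.0068 from edgeR). Between the controls the log2 difference of -0.10 did not pass (adjusted p = 0.235 from edgeR), but at -0.22 it did with library size alone.

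Wrap53 (chr11:69561758-69580255, minus strand) lies head to head with Trp53 and encodes a telomerase and Cajal body protein. It was at 37.3, 40.7 and 39.7 CPM in Null controls, 29.6, 32.0 and 31.8 CPM in DKO controls, 84.7, 79.8 and 82.7 CPM in etoposide-treated Null MEFs and 42.6, 42.2 and 42.4 CPM in etoposide-treated DKO MEFs. The 4 groups did not overlap. It rose 2.10-fold in Null (log2 1.07, SE 0.04, adjusted p = 3.55e-13 from edgeR) and 1.36-fold in DKO MEFs (log2 0.45, SE 0.04, adjusted p = 7.62e-08 from edgeR), with an interaction of -0.63 (SE 0.06, adjusted p = 1.59e-07 from edgeR). DKO MEFs were lower both before, by -0.33, and after etoposide, by -0.96 on the log2 scale. Its neighbour Trp53 changed by 1.18-fold and 1.16-fold in the same libraries.

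The annotated starts of Wrap53 and Trp53 are 103 bases apart, with no shared exon in the annotation used. The stretch between them is shown because it lies ahead of both genes, at chr11:69580256-69580358 and read on the plus strand, the strand of Trp53. The hexamer CACGTG, the core of the CLEAR element, was in the promoters of 2 of the 10 genes, Wrap53 and Trp53, and both hold the same copy of it, 124 bases ahead of the RefSeq start of Wrap53 and 11 bases into Trp53. Of all promoters of that length 7.15% hold it. It is shown on the minus strand, chr11:69580357-69580386, in capitals; it reads the same on both strands. The full CLEAR element of 10 letters was in none of the 14 entries and in 0.326% of all promoters, which says only that these letters are not in those windows.
Wrap53 to Trp53: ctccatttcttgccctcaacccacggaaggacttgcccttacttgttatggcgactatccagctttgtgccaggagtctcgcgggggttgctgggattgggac
Wrap53 hexamer: agccagggtgagCACGTGggaggggaaagt

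**Figure D3:**
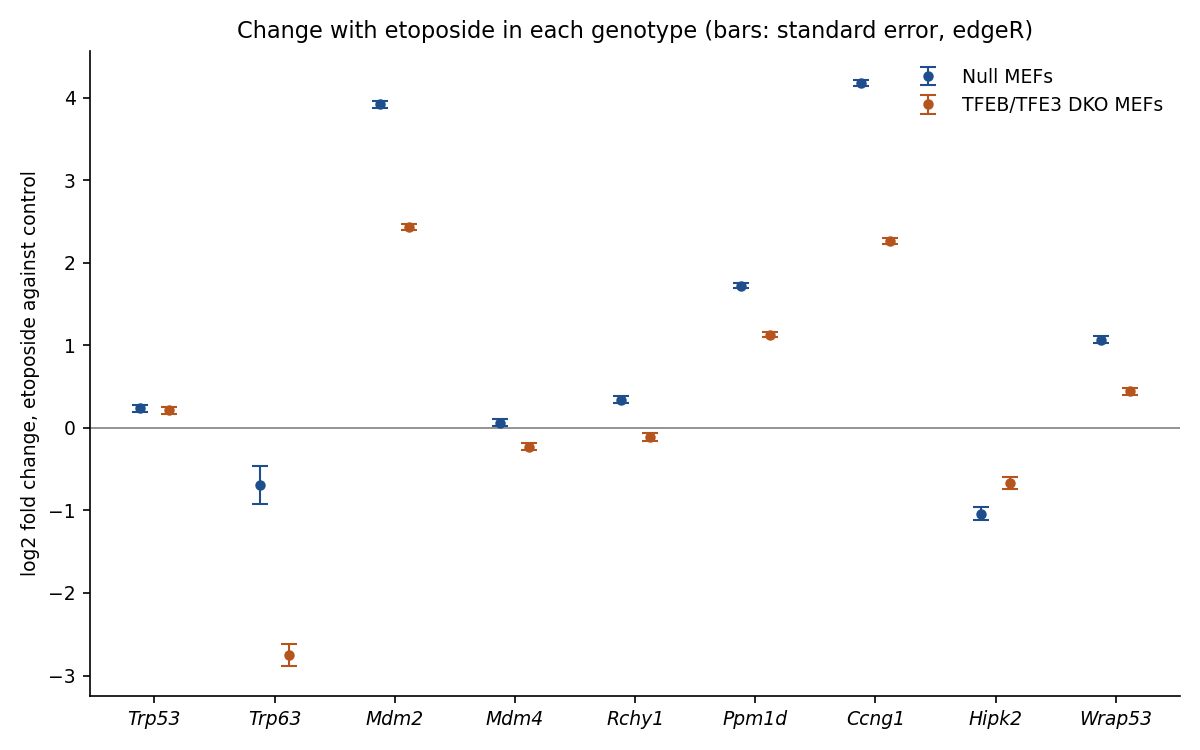
Log2 fold change with etoposide of 9 of the 10 genes in Null (blue) and DKO MEFs (orange). Bars show the standard error derived from edgeR's F statistic, most of them little longer than the point. Trp73 is left out because its controls were at or near 0. Trp53 moves by a small step in both genotypes, Mdm2, Ccng1, Ppm1d and Wrap53 rise more in Null MEFs, and Trp63 falls more in DKO MEFs; with library size alone Mdm4 and Rchy1 in DKO MEFs turn positive.

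Levels were ordered between genes after division by exon length, as CPM per kilobase. In Null controls Trp53 led with 34.5 ± 1.43, then came Ccng1 with 33.1 ± 0.475, and the 2 overlapped. They were followed by Mdm2 at 23.8 ± 1.12, Wrap53 at 19 ± 0.838, Ppm1d at 9.94 ± 0.186, Rchy1 at 7.85 ± 0.316, Mdm4 at 4.88 ± 0.162, Hipk2 at 2.45 ± 0.213, Trp63 at 0.0904 ± 0.00784 and Trp73 at 0.00167 ± 0.00147 CPM per kilobase (SD, n = 3 each), with no other neighbours overlapping. In DKO controls Ccng1 led with 38.9 ± 1.45 ahead of Trp53 with 28.8 ± 1.13, and Trp63, at 2.74 ± 0.134, stood above Hipk2, at 2.28 ± 0.0833; no neighbours overlapped.

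After etoposide Ccng1 and Mdm2 led in both genotypes, at 599 ± 4.43 and 361 ± 11 CPM per kilobase in Null MEFs and at 187 ± 7.15 and 116 ± 1.02 in DKO MEFs (SD, n = 3 each). Trp53 came next, at 40.7 ± 1.19 in Null and 33.4 ± 1.41 in DKO MEFs. In etoposide-treated Null MEFs it overlapped with Wrap53, at 40.0 ± 1.20, and in etoposide-treated DKO MEFs Ppm1d, at 20.9 ± 0.389, overlapped with Wrap53, at 20.6 ± 0.0771. The last 2 places changed hands: Trp73, at 0.468 ± 0.0214, was above Trp63, at 0.0566 ± 0.0207, in Null MEFs, and below it in DKO MEFs, at 0.0485 ± 0.0273 against 0.408 ± 0.0666.

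Likeness of pattern was described by Pearson's r of log2 CPM over the 12 libraries, taking the genes whose mean reached 10 CPM. The 12 points fall into 4 groups that share genotype and treatment, so r mostly reflects the 4 means. Nearest to Trp53 were Nceh1 (0.978), Pla2g6 (0.976) and Tfcp2 (0.975). Nearest to Mdm2 were Atg9b (0.999), Ppm1d (0.998) and Gtse1 (0.998). Nearest to Trp63 were Eva1a (0.997), Sun1 (0.995) and Bmp4 (0.994), each highest in DKO controls. Among the 10, Mdm2 and Ccng1 had 0.996, Mdm2 and Hipk2 -0.970, Trp53 and Wrap53 0.914, and Trp53 and Trp63 -0.895.

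The genes around the circuit were described through 6 lists with 137 genes in all, 134 of them tested. Of 30 known p53 targets outside the 10, 28 rose and 2 fell with etoposide in Null MEFs, against 41.7% and 36.8% of all genes tested, with a median log2 change of 1.57 against 0.07. In DKO MEFs 24 rose, 4 fell and 2 did not pass, against 44.0% and 31.3% that rose and fell, with a median of 0.83 against 0.14. Untreated, 12 were higher in DKO MEFs and 17 lower (all genes 33.4% and 34.1%; median -0.27, all genes -0.02), and after etoposide 2 were higher and 28 lower (all genes 36.9% and 35.2%; median -0.89, all genes -0.004). The interaction was positive for 2, negative for 22 and short of the threshold for 6, against 29.9% positive and 24.7% negative, with a median of -0.85 against 0.05. This list was drawn up with earlier results of these data known.

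Pidd1, which p53 induces to assemble a caspase-2 platform, rose from 2.84 ± 0.886 to 47.0 ± 3.34 CPM in Null MEFs and from 3.81 ± 0.335 to 23.6 ± 1.84 CPM in DKO MEFs (SD, n = 3 each). Perp, a membrane protein of the apoptotic programme, rose 10.9-fold in Null and 3.83-fold in DKO MEFs. The BH3-only gene Pmaip1 started at 31.0 ± 3.44 CPM in Null and at 218 ± 7.47 CPM in DKO controls, and reached 281 ± 11 and 219 ± 4.01 CPM with etoposide. It rose 9.04-fold in Null MEFs, whereas its log2 change of 0.01 in DKO MEFs did not pass (adjusted p = 0.905 from edgeR), though it did at 0.28 with library size alone. The death receptor gene Fas rose 4.44-fold in Null MEFs and fell 1.84-fold in DKO MEFs.

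**Figure D4:**
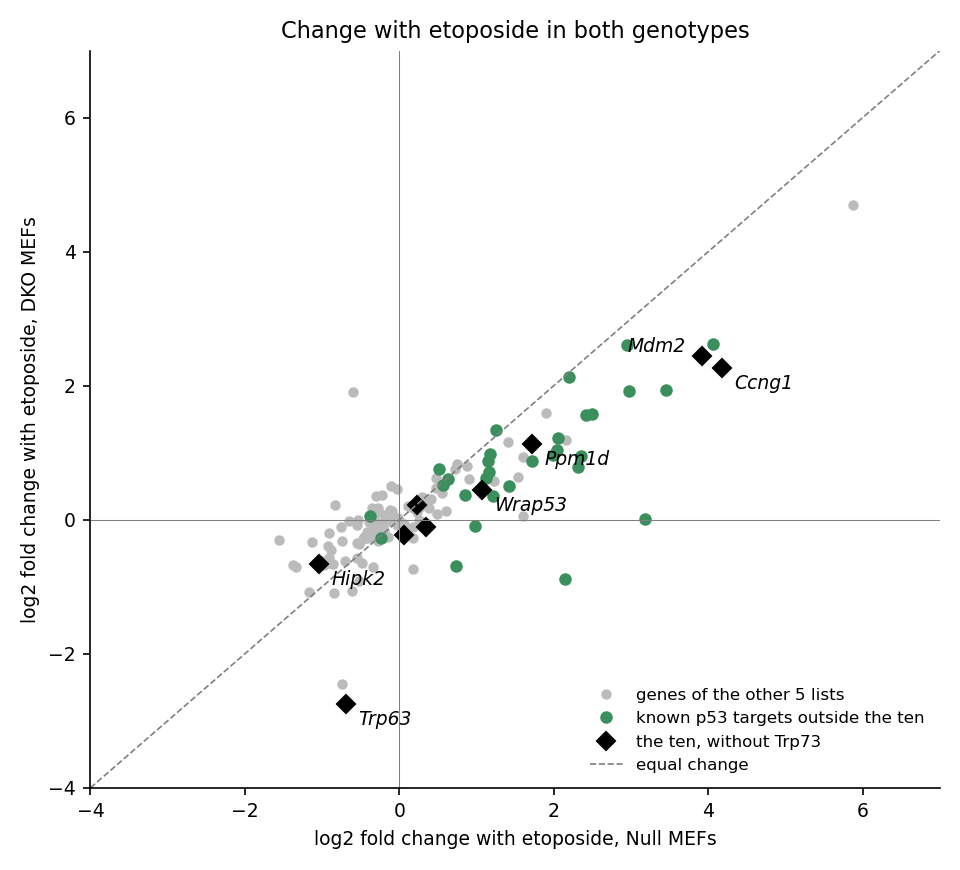
Log2 fold change with etoposide in Null MEFs (horizontal axis) and DKO MEFs (vertical axis) for 9 of the 10 genes (black diamonds, without Trp73), 30 known p53 targets outside the 10 (green) and the genes of 5 other lists (grey), with a dashed line of equal change. Mdm2, Ccng1, Ppm1d and Wrap53 lie below the line, as do most of the green points, which have medians of 1.57 in Null and 0.83 in DKO MEFs.

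Of 18 kinases and other activators of p53, 2 rose and 12 fell in Null MEFs (median -0.21, all genes 0.07), against 41.7% and 36.8% of all genes. In DKO MEFs 5 rose and 8 fell (median -0.09, all genes 0.14), against 44.0% and 31.3%. The interaction was positive for 7 and negative for 5 (median 0.06, all genes 0.05), against 29.9% and 24.7%. Trp53inp1, which promotes phosphorylation of p53 by Hipk2, rose 58.6-fold in Null and 25.9-fold in DKO MEFs, and Chek2, a checkpoint kinase of p53, 2.90-fold and 1.55-fold. The kinase gene Nuak1 fell from 276 ± 13.6 to 50.5 ± 1.42 CPM in DKO MEFs and from 61.2 ± 2.77 to 36.5 ± 0.959 CPM in Null MEFs, with an interaction of -1.71 (SE 0.06, adjusted p = 1.6e-12 from edgeR).

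Of 26 genes for acetylation, methylation and other cofactors of p53, 6 rose and 17 fell in Null MEFs (median -0.33, all genes 0.07), against 41.7% and 36.8% of all genes. In DKO MEFs 6 rose and 11 fell (median -0.09, all genes 0.14), against 44.0% and 31.3%, and the interaction was positive for 14 and negative for 4 (median 0.16, all genes 0.05), against 29.9% and 24.7%. Zfp385a, which steers p53 toward arrest genes, rose 3.74-fold in Null and 3.01-fold in DKO MEFs, and after etoposide was 4.82-fold lower in DKO MEFs; its interaction of -0.31 did not pass with library size alone (-0.21). Ppp1r13l, which encodes the p53 inhibitor iASPP, rose 3.03-fold in Null MEFs, and its log2 change of 0.06 in DKO MEFs did not pass (adjusted p = 0.617 from edgeR), though it did at 0.33 with library size alone and at 0.18 without the third etoposide library of DKO MEFs. The acetyltransferase gene Crebbp fell 2.59-fold in Null and 1.60-fold in DKO MEFs.

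The next list held ubiquitin ligases and deubiquitinases of p53, Mdm2 or Mdm4, other than the members themselves, and MAGE genes such as Maged2. Of its 26 tested genes, 6 rose and 19 fell in Null MEFs (median -0.27, all genes 0.07), against 41.7% and 36.8% of all genes. In DKO MEFs 4 rose and 15 fell (median -0.15, all genes 0.14), against 44.0% and 31.3%, and the interaction was positive for 13 and negative for 4 (median 0.17, all genes 0.05), against 29.9% and 24.7%. The ligase gene Huwe1 fell 2.53-fold in Null and 1.62-fold in DKO MEFs. Usp10, which takes ubiquitin off p53, fell 2.18-fold and 1.26-fold, the latter not past the threshold with library size alone (log2 -0.06). Maged2 rose 1.13-fold in Null and fell 1.66-fold in DKO MEFs.

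Of 20 inhibitors and nucleolar or ribosomal partners of Mdm2, 12 rose and 7 fell in Null MEFs (median 0.29, all genes 0.07), against 41.7% and 36.8% of all genes. In DKO MEFs 12 rose and 4 fell (median 0.20, all genes 0.14), against 44.0% and 31.3%, and the interaction was positive for 5 and negative for 7 (median -0.04, all genes 0.05), against 29.9% and 24.7%. Pml, which draws Mdm2 into nuclear bodies, rose 4.47-fold and 2.29-fold, and Rps27l, a p53-induced partner of Mdm2, 2.34-fold and 1.49-fold. The Mdm2-binding gene Mtbp fell 1.77-fold in Null MEFs and rose 1.17-fold in DKO MEFs.

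Of 15 tested paralogues of the 10 genes outside the p53 and Mdm families, 7 rose and 6 fell in Null MEFs (median 0.11, all genes 0.07), against 41.7% and 36.8% of all genes. In DKO MEFs 7 rose and 4 fell (median 0.09, all genes 0.14), against 44.0% and 31.3%, and the interaction was positive for 4 and negative for 3 (median -0.08, all genes 0.05), against 29.9% and 24.7%. Ccng2, the paralogue of Ccng1, rose 3.03-fold in Null and 1.91-fold in DKO MEFs, where Ccng1 rose 18.1-fold and 4.81-fold. Ppm1l, a paralogue of Ppm1d, fell 2.93-fold and 1.24-fold, the latter not past the threshold with library size alone (log2 -0.03).

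List counts in DKO MEFs shifted with library size alone, under which 61.4% of all genes rose and 19.5% fell. Under it 12 activators rose and 3 fell, and 16 cofactors rose and 5 fell. On the list of ligases and deubiquitinases 14 genes rose and 7 fell, while 2 partners of Mdm2, 2 known targets and 1 paralogue fell. In Null MEFs 4 activators rose with DESeq2's scaling inside edgeR or the filter at a mean of 1 CPM and 6 with library size alone, under which 1 known target fell. With DESeq2 the interaction was positive for 25.9% of all genes and negative for 28.7%, which turns the balance of 29.9% and 24.7% around. The balance after etoposide, 36.9% higher and 35.2% lower in DKO MEFs, also turned with DESeq2, to 32.9% and 38.2%. Negative interactions numbered 4 among the partners of Mdm2 with library size alone, without the second Null control or without the third etoposide library of Null MEFs, 2 among the cofactors with library size alone and 5 among the paralogues with DESeq2; the positive ones numbered 1 among known targets with DESeq2. Without the first etoposide library of DKO MEFs, 1 known target was higher in DKO MEFs after etoposide.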

How the data were processed

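Ribosomal RNA-depleted, stranded libraries were sequenced in pairs. Per the study's methods, the authors used FastQC on the reads and Cutadapt if needed, aligned with HISAT2, kept unique pairs and counted genes of GENCODE with HTSeq. The submitters' processing notes name HISAT2, featureCounts and the mm10 build. Versions and the strand setting are not given in the sources used here. The authors deposited raw counts per gene, with 5 summary lines, left out of library sizes: 20.2% to 27.3% of each library's total fell on no feature, 15.9% to 20.5% were not unique and 0.428% to 0.513% ambiguous. Multi-mapped reads are lost, so genes with close copies (Trp53 and Mdm4 have processed pseudogenes) may be undercounted.

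From these counts, edgeR 4.0.16 in R 4.3.3 (filterByExpr, TMM, estimateDisp, glmQLFit, glmQLFTest) fitted 1 model to 12 libraries in 4 groups, with 5 contrasts. Groups and replicate numbers came from the labels. At the shallowest depth, 45577023 counts, 3 counts amount to 0.0607 CPM. CPM used TMM factors of 0.884 to 1.09. Replicates differed by more than sampling noise (chi-square over its degrees of freedom 10.7 to 22.0). Alternatives were DESeq2 1.42.0, limma-trend 3.58.1 (the test of the study), other scalings and filters, a replicate block, robust estimates, only the libraries compared, and leaving out each library. Named beside the 10 genes were, of each list, the 2 past the threshold with the largest change in Null MEFs and the 2 with the largest interaction at a mean of at least 10 CPM. Of 184 list symbols, 181 matched directly and 3 by a RefSeq synonym. The members and lists were chosen with earlier results of these data known.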

Additional observations from a re-analysis of the deposited data

Results flagged for a closer look

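The results in this section are those whose change with etoposide differed between Null and DKO MEFs by the interaction test of edgeR (DKO minus Null, log2 scale, 3 libraries a group, adjusted over 15220 genes). Among the 10 genes these were Trp63 at -2.06, Ccng1 at -1.91, Mdm2 at -1.48, Wrap53 at -0.63, Ppm1d at -0.59, Rchy1 at -0.45, Mdm4 at -0.29 and Hipk2 at 0.37, with adjusted p from 2.86e-14 for Ccng1 to 0.0068 for Hipk2. Trp63 differs from the others in that its level was already 30.4-fold apart in the controls.

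Among the genes named from the lists, the interaction was negative for Pmaip1 at -3.17, Fas at -3.03, Nuak1 at -1.71, Ppp1r13l at -1.54, Perp at -1.51, Pidd1 at -1.44, Trp53inp1 at -1.18, Pml at -0.96, Maged2 at -0.91, Chek2 at -0.90, Ccng2 at -0.66, Rps27l at -0.65 and Zfp385a at -0.31. It was positive for Ppm1l at 1.25, Mtbp at 1.05, Usp10 at 0.79, Crebbp at 0.70 and Huwe1 at 0.64. Adjusted p ran from 5.13e-14 for Pmaip1 to 0.0179 for Zfp385a (edgeR).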

How the results depend on the processing

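Of 720 values of 45 results on the 10 genes other than Trp73 under the alternatives, 704 kept their side of the threshold with no change of sign past it. Of the rest, 6 lost the call at the same sign, 8 gained one, and 2 changed sign from a called value. Some values past the threshold in neither fit changed sign near 0, such as the Trp53 interaction, which ranged from -0.085 to 0.085. The 2 called values that changed sign were the changes with etoposide in DKO MEFs of Mdm4 (0.049 against -0.22) and Rchy1 (0.16 against -0.11) with library size alone. The Mdm4 value did not pass under that scaling. That scaling moved the median of all genes by 0.17 in Null and 0.27 in DKO MEFs with etoposide, by -0.12 between controls and by 0.11 in the interaction, and the share of calls above 0 from 53.1% to 63.8%, from 58.5% to 75.9%, from 49.5% to 38.2% and from 54.8% to 65.0% (47.4% in the interaction with DESeq2). Both changes of sign amount to the shift of the median. The total counts of genes called stayed within 1.5 times under each alternative, but genes called lower with etoposide in DKO MEFs went from 4757 to 2975 with library size alone. The labels do not say whether replicate numbers pair the libraries. Over 18 pairs with the same number, deviations from the group means correlated between -0.032 and 0.0429. No effect shared by number was seen, which does not show how the libraries were made. With a replicate block, genes called numbered 11873, 11374, 10206, 10886 and 8196 in place of 11940, 11459, 10263, 10963 and 8310, and no call among the 10 genes changed. Leaving out 1 library at a time, the interaction ranged from -1.52 to -1.44 for Mdm2, from -1.96 to -1.89 for Ccng1 and from -2.26 to -1.75 for Trp63. Depth limits Trp73 in controls and Trp63 in Null MEFs.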
